A study of Bos taurus with 33 samples.

Results

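Oocytes of large follicles induced to ovulate by GnRH were compared with oocytes of follicles in cows that came into estrus by themselves. The comparison used 10 of the 33 pools of the series, 6 from large and 4 from spontaneous follicles, each made of 4 oocytes, and covered 10076 of the 16279 transcripts listed for oocytes. A transcript was retained where it reached at least 5 CPM, that is, read counts scaled to 1000000 reads on genes, in at least 4 of the 16 oocyte pools. All donors were suckled postpartum beef cows (Hereford-Angus crossbred) given a progesterone insert in a pre-synchronization, GnRH on day -9 and prostaglandin F2α on day -2. Cows of the large classification had a follicle of at least 12.7 mm, showed no estrus and received a second GnRH injection on day 0. Cows of the spontaneous classification had a follicle of 11.7 to 14 mm, expressed estrus and received no second GnRH injection. The largest follicle was aspirated about 23 h after GnRH or estrus per the treatment protocol, while the stage label of the samples gives about 20 h. Estrus, the second GnRH injection and the range of follicle diameters differ together between the classifications, so their parts cannot be told apart, and a pool averages oocytes of several cows whose identity the labels do not give.

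A fully grown oocyte lives on transcripts it stored during growth. Around the gonadotropin surge its nucleus stops transcribing, meiosis resumes, and transcript levels then change mainly through polyadenylation, translation and decay. The oocyte holds far more mitochondria than a somatic cell, and its oxidative phosphorylation needs subunits from both the nuclear and the mitochondrial genome. Nuclear subunits are translated on cytosolic ribosomes and imported. The mitochondrial genome encodes core subunits of complexes I, III, IV and V, which are transcribed as long shared precursors and translated on separate mitochondrial ribosomes. Because pools hold a fixed number of oocytes but CPM are relative to the reads of a pool, more RNA of one kind and less RNA of the others cannot be told apart.

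Large pools held 10829481 to 14118707 reads on genes and spontaneous pools 13182627 to 17934916, so that 3 reads, the limit for a transcript without a read, were worth 0.213 to 0.277 and 0.167 to 0.228 CPM. These limits cover counting error only, since amplified reads are not independent molecules. Oocyte identity was clear in all 10 pools: the 17 oocyte markers were all retained, and their summed CPM was 14480 to 17910 in large and 14760 to 17800 in spontaneous pools. ZP2, a zona pellucida protein and the marker of highest CPM, was at 4318 ± 464 CPM in large pools and 4169 ± 773 in spontaneous pools (SD over 6 and 4 pools). A pair of pools stood apart from the rest. Large replicate 6 lay at 80.2 on the first principal component, where the other 9 pools lay between -31.6 and 21.6. Spontaneous replicate 3 lay at 81.3 on the second component, where the others lay between -28.3 and 8.75. Results that rest on either pool are given with and without it. The labels do not say which pools share a day or a batch.

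**Figure D1:**
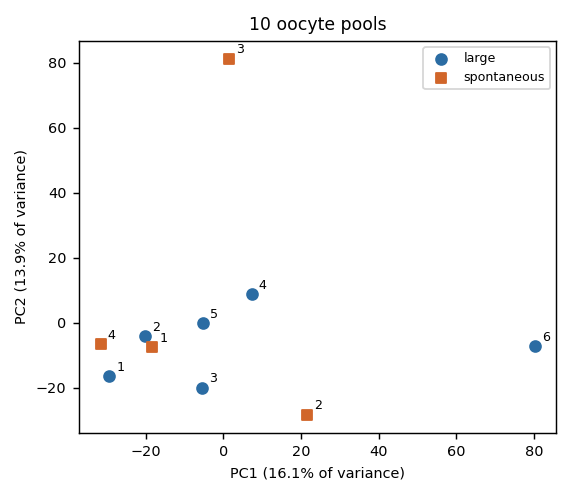
First and second principal components of log2(CPM + 1) over the retained transcripts, with their shares of the variance (16.1% and 13.9%), for 6 large (circles) and 4 spontaneous (squares) oocyte pools numbered by replicate. Large replicate 6 and spontaneous replicate 3 lie apart, and the remaining pools of both classifications intermix.

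The comparison asks whether oocytes of a large induced follicle carry the same transcripts as those of a follicle that reached its own gonadotropin surge. Log2(CPM + 1) was tested with limma, two-sided, and differences are spontaneous minus large, a scale that understates changes of low transcripts. At a nominal p of 0.01 or less, 95 of the 10076 transcripts differed (0.943%), with 40 higher in spontaneous (0.397%) and 55 higher in large pools (0.546%). This share is below the 1% that such a threshold passes when no transcript differs, which would be 101 transcripts. In limma 0 transcripts had an adjusted p under 0.05 (the smallest was 0.847), and 491 had an unadjusted p under 0.05, with 251 higher in spontaneous (2.49%) and 240 higher in large pools (2.38%). Each transcript below is therefore a candidate by rank. By direction alone, 5129 of the 10076 (50.9%) were higher in spontaneous pools, the share that stands beside the counts of list members below. Of the 95, 65 also passed in edgeR's quasi-likelihood test and 81 in DESeq2, and 22 with depth as a covariate. Depth and classification were partly aligned, since 3 of the 4 spontaneous pools were deeper than every large pool. With depth as a covariate CBX6, ALKBH7, TNC, PRELID1, COX1, cytb, ND1, ND4, ND5, ADNP2, PEG10 and ERLIN1 passed. Most other calls named below missed the threshold in that fit. Among these were EDF1, NDUFA13, NDUFA4, COX6A1, COX7A2, RPL18, TRIR, MED18, SH3RF1, LAMP1, PSMC2, GSTM3, MAP4K1 and POLE4. UBE3C, ZNF829, ZNF2, SETD1A, SETD2, LCOR, EIF4G2 and DCP1A missed it as well. The transcripts higher in spontaneous pools had a median difference of 1.36 on the log2 scale (0.548 to 3.68), and those higher in large pools a median of 1.21 (0.346 to 2.51) in size.

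**Figure D2:**
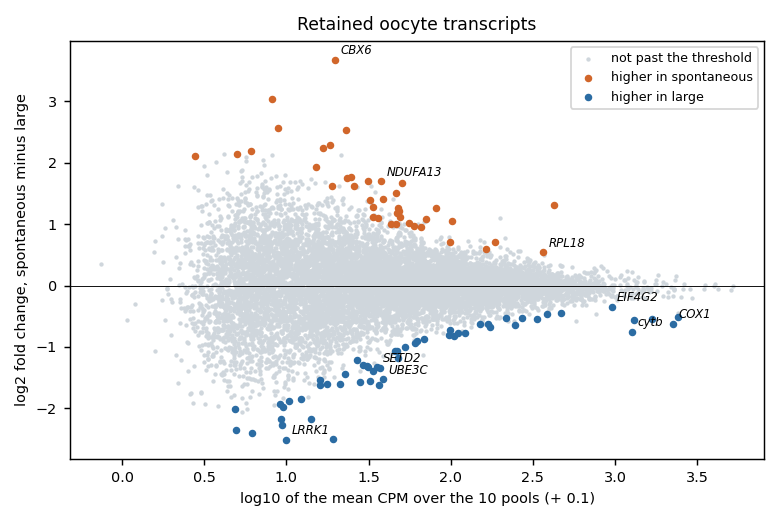
Log2 fold change (spontaneous minus large, of log2(CPM + 1)) against the log10 of the mean CPM over the 10 pools for each retained transcript. The 40 transcripts higher in spontaneous and the 55 higher in large pools at a nominal p of 0.01 or less are coloured, and the mitochondrially encoded COX1 and cytb lie among the most abundant of the latter.

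All 13 transcripts encoded by the mitochondrial genome were lower in spontaneous pools, and 5 of them passed the nominal threshold, beside the 0.546% of all transcripts that were called in this direction. The 5 were COX1, a core subunit of complex IV, cytb, the cytochrome b of complex III, and ND1, ND4 and ND5, which form part of the proton-pumping arm of complex I. COX1 (ENSBTAG00000043561) ranged from 1842 to 4423 CPM in large pools with a median of 2394, and was at 1461, 1835, 1530 and 1816 in spontaneous pools 1 to 4. Every spontaneous pool was thus below every large pool, though the closest 2 were almost level. COX1 fell by 0.62 on the log2 scale (with a standard error of 0.17 and a limma p of 0.000851, adjusted p = 0.847, exact permutation p = 0.0381). Cytb (ENSBTAG00000043550) ranged from 1023 to 2654 CPM in large pools (median 1281) and was at 782, 1023, 604 and 1133 in spontaneous pools. Its groups overlapped, with spontaneous replicate 4 inside the range of the large pools, and the difference was -0.75 (with a standard error of 0.20 and a limma p of 0.000871, adjusted p = 0.847, exact permutation p = 0.0857). ND1 (ENSBTAG00000043558) ranged from 2187 to 4460 CPM in large pools (median 2374) and was at 1696, 2129, 1675 and 2034 in spontaneous pools, which did not overlap (log2 fold change -0.51 with a standard error of 0.15 and a limma p of 0.0019, exact permutation p = 0.0571). ND5 and ND4 differed by -0.54 and -0.56, and their groups overlapped.

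Among the other 8, ATP6, COX3, MT-CO2, MT-ND3 and MT-ND4L had an unadjusted p under 0.05 with log2 fold changes from -0.68 to -0.45, beside 2.38% of all transcripts. ND2 (-0.34), ND6 (-0.51) and ATP8 (-0.40) did not. The 13 members had a median log2 fold change of -0.53, against 0.01 over all retained transcripts. They come from shared precursors and are not independent of each other. Their summed CPM ranged from 11260 to 26770 in large pools (median 12820) and was 9436, 10780, 8462 and 11830 in spontaneous pools. Spontaneous pools 1, 2 and 3 lay below every large pool, and spontaneous replicate 4 lay above the lowest large pools. Large replicate 6, which stood apart, had by far the highest sum. That pool also had the highest sum of cumulus and granulosa markers of the 10 (4449 CPM). In cumulus cells, a table scaled separately, COX1 averaged 57610 CPM in large and 51920 CPM in spontaneous pools. What adhering cells added to these values was not tested. Without large replicate 6 the median difference was -0.36, and without it and spontaneous replicate 3 the median difference was -0.30. ND4 and ND5 no longer passed without large replicate 6 (-0.35 and -0.40), large replicate 2 (-0.52 and -0.50), spontaneous replicate 1 (-0.53 and -0.52) or spontaneous replicate 3 (-0.42 and -0.34), nor did ND4 without large replicate 1 (-0.57) or spontaneous replicate 2 (-0.59), while COX1, cytb and ND1 passed with any one pool left out. Without both pools cytb and ND1 missed the threshold (-0.41 and -0.30) and COX1 passed (-0.42). In DESeq2 none of the 5 passed.

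Nuclear genes of oxidative phosphorylation differed in the other direction. Of 84 retained members, 72 were higher in spontaneous pools, beside 50.9% of all retained transcripts. The median log2 fold change was 0.53 for the 35 of complex I (32 higher) and 0.45 for the 49 of complexes II to V (40 higher). At the nominal threshold 4 were called, all higher in spontaneous pools beside 0.397% of all transcripts: NDUFA13, an accessory subunit of complex I, NDUFA4, long listed with complex I and since assigned to complex IV, and COX6A1 and COX7A2, small subunits of complex IV. NDUFA13 (ENSBTAG00000007812) ranged from 6.26 to 31.8 CPM in large pools (median 21.7) and was at 38.2, 92.6, 64.6 and 58.6 in spontaneous pools. Its groups did not overlap, and it passed with any one pool left out, but not with depth as a covariate. NDUFA4 (ENSBTAG00000011145) ranged from 23.2 to 97.3 CPM in large pools (median 50.5) and was at 86.6, 146.5, 143 and 106.6 in spontaneous pools, where 1 pool lay below the highest large pool. COX6A1 (ENSBTAG00000012788) ranged from 13.4 to 55.5 CPM in large pools (median 23.5) and was at 60.4, 42.5, 122 and 64.5 in spontaneous pools. It rose by 1.26 (with a standard error of 0.41 and a limma p of 0.00496, adjusted p = 0.954, exact permutation p = 0.0286). It missed the threshold without large replicate 3 (1.15) or 4 (1.06), or spontaneous replicate 3 (0.97) or 4 (1.28). COX7A2 (ENSBTAG00000005096) ranged from 17.3 to 62.1 CPM in large pools (median 25.4) and was at 54.5, 51.1, 108 and 75.9 in spontaneous pools, the highest being again replicate 3. It missed the threshold without spontaneous replicate 3 (1.01) or 4 (1.18).

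At an unadjusted p under 0.05, 11 nuclear members were higher in spontaneous pools and 1 in large pools, beside 2.49% and 2.38% of all transcripts. Besides the calls, the 11 included NDUFA11, NDUFA7, COX17, COX5B, COX6B1, USMG5 and ATP5G2, with log2 fold changes of 0.64 to 1.34. ATP5G2, which makes the c-ring subunit of ATP synthase, ranged from 4.35 to 10.3 CPM in large pools (median 8.62) and was at 17.3, 6.34, 44.4 and 33.0 in spontaneous pools, replicate 2 being as low as the large pools. It missed the threshold in limma and passed in edgeR's likelihood ratio test and in DESeq2. COX11, an assembly factor that delivers copper to complex IV, was the only such member lower in spontaneous pools. It was at 0.531, 0, 0.228 and 1.45 CPM there, near the worth of a few reads, and ranged from 1.11 to 12.6 in large pools (median 5.69), with a log2 fold change of -1.96 that missed the threshold (exact permutation p = 0.0333). It passed in edgeR's likelihood ratio test and DESeq2, and in limma with no filter or a filter on a mean of 1 CPM. The member of highest CPM in complex I, NDUFV2, was at 109 ± 25.4 CPM in large and 136 ± 25.8 in spontaneous pools (SD over 6 and 4 pools), and that of complexes II to V, ATP5C1, at 199 ± 44.7 and 199.5 ± 45.9. The summed CPM of all 93 listed nuclear members, retained or not, ranged from 2807 to 4389 in large pools (median 3965) and was 4508, 3733, 6437 and 5213 in spontaneous pools. Spontaneous replicate 2 thus lay within the large pools and replicate 3 was the highest. The median difference of the 84 was 0.46, 0.27 without spontaneous replicate 3, and 0.33 without both pools that stood apart.

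**Figure D3:**
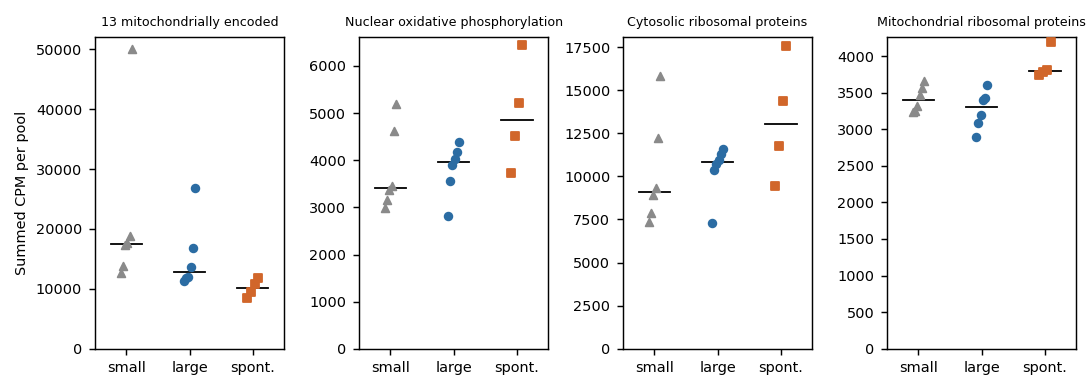
Summed CPM per oocyte pool (linear axis from 0) of the 13 mitochondrially encoded transcripts and of all listed nuclear oxidative phosphorylation, cytosolic ribosomal protein and mitochondrial ribosomal protein transcripts, retained or not. Points are pools of small (n = 6), large (n = 6) and spontaneous (n = 4) follicles and bars are medians. The first sum was lowest in spontaneous pools (median 10110 against 12820 in large) and the other 3 had their highest medians there.

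Ribosomal protein transcripts were also mostly higher in spontaneous pools. Of 80 retained transcripts for proteins of the cytosolic ribosome, 76 were higher in spontaneous pools, with a median log2 fold change of 0.36. RPL18 alone passed the nominal threshold, beside 0.397% of all transcripts called in this direction. At an unadjusted p under 0.05 there were 14, all higher in spontaneous pools, beside 2.49% of all transcripts. RPL18 (ENSBTAG00000015388) ranged from 226 to 437 CPM in large pools (median 298) and was at 467, 356, 519.7 and 452 in spontaneous pools. It rose by 0.55 (with a standard error of 0.17 and a limma p of 0.00395, adjusted p = 0.925, exact permutation p = 0.019). Spontaneous replicate 2 lay inside the large range, and the call was lost without large replicate 3 (0.46) or 4 (0.50) or spontaneous replicate 1 (0.52), 3 (0.47) or 4 (0.54). Further members at this level were RPS28 (0.74), RPL27 (0.56), RPL34 (0.66) and FAU (0.72), whose log2 fold changes are given without a call. Transcript lengths were not used here, and whether the differences of these or other transcripts vary with length was not tested. RPL10, the member of highest CPM, was at 667 ± 105 CPM in large and 781 ± 137 in spontaneous pools. These genes have processed copies elsewhere in the genome among which reads can be split, so single values are uncertain. The summed CPM of the 89 listed members, retained or not, ranged from 7283 to 11610 in large pools (median 10820) and was 11740, 9466, 17580 and 14390 in spontaneous pools. As for oxidative phosphorylation, spontaneous replicate 3 was highest and replicate 2 lowest, and the median difference ran from 0.18 without spontaneous replicate 3 to 0.52 without spontaneous replicate 2. It was 0.23 without both pools that stood apart.

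Of 71 retained transcripts for proteins of the mitochondrial ribosome, which translates the mitochondrially encoded transcripts, 48 were higher in spontaneous pools (median log2 fold change 0.26), and none passed the nominal threshold in limma. At an unadjusted p under 0.05 there were 5, all higher in spontaneous pools beside 2.49% of all transcripts: MRPL54 (1.74), MRPL10 (1.43), MRPS15 (1.01), MRPL4 (0.65) and MRPL37 (0.55). The summed CPM of the 78 listed members, retained or not, ranged from 2896 to 3603 in large pools (median 3298) and was 3739, 3809, 4197 and 3786 in spontaneous pools, so the sums did not overlap. MRPL37, the member of highest CPM, was at 186 ± 33.6 CPM in large and 296 ± 161 in spontaneous pools. The median difference of the members was 0.04 without both pools that stood apart and 0.14 without spontaneous replicate 3 alone. Of 47 retained translation initiation factors 26 were higher in spontaneous pools (median 0.05), and 1 was called, in the other direction, beside 0.546% of all transcripts. EIF4G2, an eIF4G relative used in cap-independent initiation, ranged from 993.8 to 1117 CPM in large pools (median 1033) and was at 681, 1015, 729.6 and 883 in spontaneous pools (log2 fold change -0.35, exact permutation p = 0.019). Its call held in only 2 of the 10 fits that left out a pool, with log2 fold changes of -0.36 to -0.26 in the other 8 (each large pool, spontaneous replicates 1 and 3). EIF5B, the member of highest CPM, was at 1601 ± 211 and 1404 ± 277 CPM.

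Outside these lists, the transcripts with the smallest p among those higher in spontaneous pools served several functions. EDF1, a small coactivator that also binds stalled ribosomes, ranged from 10.3 to 52.6 CPM in large pools (median 23.7) and was at 77.4, 126.6, 59.3 and 73.7 in spontaneous pools. The groups did not overlap, and the exact permutation p was 0.00476, the smallest that 6 against 4 pools allow. EDF1 passed with any one pool left out, but not with depth as a covariate. ALKBH7 (ENSBTAG00000025540), a mitochondrial dioxygenase, ranged from 0.0845 to 8.32 CPM in large pools (median 0.627) and was at 16.5, 32.5, 12.9 and 7.81 in spontaneous pools. Large replicate 1 reached the lowest spontaneous pool, the others were well below, and ALKBH7 rose by 3.04 (with a standard error of 0.75 and a limma p of 0.000358, adjusted p = 0.847, exact permutation p = 0.00952). TRIR (ENSBTAG00000011825), an RNase linked to telomerase RNA, ranged from 1.35 to 12.5 CPM in large pools (median 5.595) and was at 40.7, 29.7, 18.7 and 35.5 in spontaneous pools. These groups were fully apart (log2 fold change 2.25 with a standard error of 0.59 and a limma p of 0.000758, adjusted p = 0.847, exact permutation p = 0.00476). MED18 (ENSBTAG00000002678), a subunit of the Mediator head, ranged from 5.18 to 19.2 CPM in large pools (median 11.0) and was at 54.3, 34.4, 25.5 and 46.0 in spontaneous pools. SH3RF1, a scaffold with ubiquitin ligase activity, ranged from 32.3 to 54.6 CPM in large pools (median 45.5) and was at 85.3, 76.3, 89.0 and 89.1 in spontaneous pools. Both were fully apart, differing by 1.75 and 0.98 on the log2 scale, with an exact permutation p of 0.00476 for each. SH3RF1 had the narrowest spread of these, 43.2 ± 8.39 against 84.9 ± 6.01 CPM (SD over 6 and 4 pools).

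**Figure D4:**
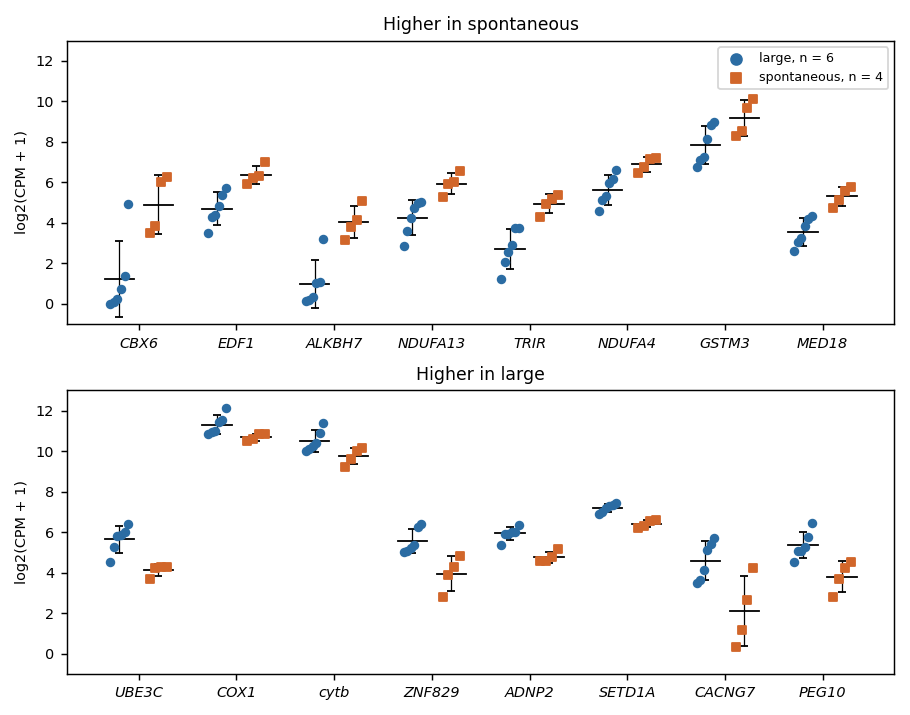
Log2(CPM + 1) in each oocyte pool for the 8 transcripts of smallest limma p higher in spontaneous and the 8 higher in large pools. Circles are large pools (n = 6), squares spontaneous pools (n = 4), and bars give the mean ± SD. EDF1, NDUFA13, TRIR and MED18 are fully apart in the upper panel, and large replicate 6 is the high CBX6 value among the large pools.

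PSMC2 (ENSBTAG00000046712), an ATPase of the proteasome base, ranged from 18.7 to 43.0 CPM in large pools (median 34.8) and was at 82.3, 66.2, 81.0 and 58.7 in spontaneous pools. It was higher by 1.12 (with a standard error of 0.33 and a limma p of 0.00204, adjusted p = 0.925, exact permutation p = 0.00476) without overlap, and missed the threshold without both pools that stood apart (0.91). Of the 48 retained proteasome transcripts 32 were higher in spontaneous pools (median 0.18), with PSMC2 the only call (beside 0.397% of all transcripts), and PSMA7, the highest in CPM, was at 277 ± 61.5 and 301 ± 30.3. LAMP1, a lysosomal membrane protein, ranged from 39.1 to 123.6 CPM in large pools and was at 162, 139, 123 and 145 in spontaneous pools (log2 fold change 1.06, exact permutation p = 0.0143). GSTM3, a glutathione transferase, ranged from 108.5 to 505 CPM in large pools and was at 373, 312, 1131 and 811 in spontaneous pools. Its log2 fold change was 1.32, and 0.99 and short of the threshold without spontaneous replicate 3. The antioxidant enzymes as a list gave 18 of 30 members higher in spontaneous pools (median 0.13) and no call in limma. POLE4, a small subunit of DNA polymerase epsilon, differed by 1.52 and was lost without spontaneous replicate 1 (1.39). BAIAP2L2, a membrane-bending protein, differed by 2.56 and was lost without spontaneous replicate 3 (2.20). TNC, the matrix protein tenascin C, differed by 2.29 and was lost without spontaneous replicate 2 (1.70), the pool at 90.5 CPM where the other 3 were at 14.2 to 22.7. MAP4K1, a kinase best known from blood cells, was at 50.9, 8.84, 54.2 and 64.0 CPM in spontaneous pools and ranged from 0.89 to 23.2 in large pools (median 6.33). Its difference of 2.54 passed with any one pool left out and missed the threshold without both pools that stood apart (2.03).

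A further group was singled out after its values were seen. Among the 40 transcripts higher in spontaneous pools, 7 besides the respiratory subunits encode proteins that work in mitochondria: ALKBH7, LIAS (lipoic acid synthesis), TIMM17B (protein import), PRELID1 (lipid transfer), MCUB (a subunit of the calcium uniporter), CCDC51 (a potassium channel) and ROMO1 (an inner membrane protein). Their log2 fold changes were 3.04, 1.11, 1.08, 1.62, 1.01, 2.10 and 1.76. LIAS was the one without overlap, at 13.1 to 29.5 CPM in large pools and 39.7, 39.1, 57.0 and 63.2 in spontaneous pools. ALKBH7 passed in all 10 fits that left out a pool, LIAS, TIMM17B, PRELID1, MCUB and ROMO1 were each lost in 3 to 7 of them, and CCDC51 was retained in 7 of them and lost in 5 of those. Neither ALKBH7 nor CCDC51 would have been retained without the spontaneous pools. How many such proteins are among all retained transcripts, or among those called higher in large pools, was not counted. Since the group was assembled from the called transcripts, it is a description.

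Among transcripts higher in large pools, UBE3C, a ubiquitin ligase that works at the proteasome, had the smallest p. UBE3C (ENSBTAG00000008025) ranged from 21.7 to 83.4 CPM in large pools (median 55.8) and was at 17.9, 18.6, 18.2 and 11.7 in spontaneous pools. The groups did not overlap and it fell by 1.53 (with a standard error of 0.40 and a limma p of 0.000698, adjusted p = 0.847, exact permutation p = 0.0143). ADNP2 (ENSBTAG00000005916), a homeodomain and zinc finger protein, ranged from 40.3 to 81.5 CPM in large pools (median 61.5) and was at 22.5, 25.8, 23.1 and 34.7 in spontaneous pools. Its groups were fully apart as well (log2 fold change -1.17 with a standard error of 0.32 and a limma p of 0.00109, adjusted p = 0.847, exact permutation p = 0.00476), and it passed under all 15 other settings tried and with any one pool left out. PEG10, an imprinted gene derived from a retrotransposon, ranged from 22.1 to 85.5 CPM in large pools (median 35.4) and was at 11.8, 22.0, 5.92 and 17.6 in spontaneous pools. Here the highest spontaneous pool nearly reached the lowest large pool, and the difference of -1.56 was lost without spontaneous replicate 3 (-1.22).

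The 15 transcripts of smallest p higher in large pools included the zinc finger genes ZNF829 and ZNF2, neither of which passed with depth as a covariate. ZNF829 ranged from 31.5 to 83.9 CPM in large pools (median 38.1) and was at 18.6, 5.87, 27.5 and 13.5 in spontaneous pools (log2 fold change -1.62, exact permutation p = 0.0333). ZNF2 ranged from 178.7 to 249 CPM in large pools (median 196) and was at 147, 112.5, 163 and 90.3 in spontaneous pools, a difference of -0.68 that was lost without spontaneous replicate 4 (-0.53). The groups of both did not overlap. A count over every retained gene whose symbol starts with ZNF, made after the values were seen, gave 77 of 162 higher in spontaneous pools and a median of -0.02, with 3 called (ZNF829, ZNF2 and ZNF391), all higher in large pools beside 0.546% of all transcripts. At an unadjusted p under 0.05, 9 were higher in large and 3 in spontaneous pools, beside 2.38% and 2.49%. ZNF391 kept its call in 3 of the 10 fits that left out a pool, and lost it in edgeR's quasi-likelihood test and limma-voom. Low transcripts made up others of the 15. KIF26B, a kinesin-like protein, ranged from 2.45 to 17.2 CPM in large pools and was at 0.332, 0.0675, 1.14 and 0.446 in spontaneous pools. It was retained only through large pools, as was 1 other of the 55 transcripts higher in large pools (TGFB1I1, named for this), and a transcript retained in this way had to differ. Other calls, CBX6, ALKBH7, CCDC51 and LRRK1 among them, also needed the pools where they were high, beside other pools, to be retained. LRRK1, a kinase with GTPase and leucine-rich domains, ranged from 1.63 to 36.6 CPM in large pools (median 11.4) and was at 0, 0.0675, 3.72 and 2.90, a difference of -2.51 that was lost without large replicate 2 (-2.18) or spontaneous replicate 1 (-2.15) or 2 (-2.18), and in edgeR's quasi-likelihood test. LRRC45, a centrosomal protein, was at 3.79, 0, 6.68 and 1.28 CPM against 7.30 to 20.3 (-2.17, and -1.64 and lost without spontaneous replicate 2), and did not pass in either edgeR test, DESeq2 or limma-voom. NACC1, a BTB-domain regulator, differed by -2.17 and was lost without large replicate 5 (-1.88) or spontaneous replicate 1 (-1.87). CACNG7, an auxiliary calcium channel subunit, differed by -2.50 and passed with any one pool left out, but not in either edgeR test. ERLIN1, a scaffold of the endoplasmic reticulum, differed by -0.81 and was lost without spontaneous replicate 1 (-0.71) or 3 (-0.63).

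Chromatin genes were called in both directions. Of the 30 retained Polycomb group transcripts, which serve heritable gene silencing, 16 were higher in spontaneous pools with a median of 0.04. The 2 calls, both higher in spontaneous pools beside 0.397% of all transcripts, were CBX6, a chromodomain subunit of Polycomb repressive complex 1, and LCOR, a corepressor whose locus also makes a Polycomb accessory protein. CBX6 (ENSBTAG00000046724) ranged from 0 to 29.6 CPM in large pools with a median of 0.404, and was at 75.4, 64.8, 10.2 and 13.4 in spontaneous pools. Of the large pools, 5 lay below every spontaneous pool, and replicate 6 lay between the spontaneous pools. Its difference of 3.68 was the largest in the comparison, was 4.89 without both pools that stood apart, and did not pass in edgeR or DESeq2. Without the spontaneous pools CBX6 would not have been retained. LCOR (ENSBTAG00000046239) ranged from 30.4 to 75.9 CPM in large pools (median 45.1) and was at 104, 63.6, 86.9 and 115 in spontaneous pools, a difference of 0.96 that was lost without spontaneous replicate 1 (0.89) or 4 (0.84). RBBP7, the member of highest CPM, was at 941 ± 108 and 872 ± 145 CPM.

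Of 47 retained histone demethylases and methyltransferases, 30 were higher in large pools (median -0.11) and 2 were called, both in that direction, beside 0.546% of all transcripts. SETD1A (ENSBTAG00000002345), which methylates histone H3 lysine at promoters, ranged from 118 to 173 CPM in large pools (median 149.9) and was at 92.8, 95.5, 78.7 and 72.9 in spontaneous pools. The groups did not overlap and it fell by 0.78 (with a standard error of 0.21 and a limma p of 0.00111, adjusted p = 0.847, exact permutation p = 0.00476). SETD1A missed the threshold with depth as a covariate. SETD1B, its close relative, differed by -0.59, short of the threshold. SETD2, which methylates histones along gene bodies and is needed in the oocyte for the maternal epigenome, ranged from 24.7 to 102 CPM in large pools (median 41.0) and was at 14.0, 28.2, 21.5 and 7.69 in spontaneous pools. Its difference of -1.33 was lost without large replicate 2 (-1.30), 5 (-1.28) or 6 (-1.08) or spontaneous replicate 1 (-1.27) or 4 (-1.01), and large replicate 6 was the pool at 102. KMT2C, the member of highest CPM, was at 1196 ± 123 and 1058 ± 51.5 CPM. DNA methylation and imprint protection genes gave no call, with 8 of 18 higher in spontaneous pools (median -0.05), and DPPA3, which protects the maternal genome from demethylation, was at 2055 ± 200 and 1828 ± 173 CPM.

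Among 52 retained transcripts for maternal mRNA storage and decay the median was 0.00 with 25 higher in spontaneous pools. The 7 at an unadjusted p under 0.05 were all higher in large pools (beside 2.38%), and 1 passed the nominal threshold (beside 0.546%). This was DCP1A, an activator of mRNA decapping, which ranged from 344 to 549 CPM in large pools (median 423) and was at 249, 271, 395 and 355 in spontaneous pools (log2 fold change -0.46, exact permutation p = 0.0429). The call held in 3 of the 10 fits that left out a pool, and was lost with values of -0.48 to -0.35 without large replicates 1, 2, 4, 5 or 6 or spontaneous replicates 1 or 2. Its partners EDC3 and EDC4, scaffolds of the decapping complex, differed by -1.20 and -0.74, DAZL, a translational activator, by -0.67, and PUM2 and IGF2BP2 by -0.38 and -0.54, none past the threshold. BTG4, the deadenylation adaptor that clears maternal mRNA, was at 4003 ± 377 CPM in large and 4017 ± 584 in spontaneous pools.

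Of the 42 maturation-promoting factor and meiotic arrest transcripts 23 were higher in spontaneous pools (median 0.01), and WEE2, the oocyte kinase that holds meiotic arrest, was at 2355 ± 270 and 2096 ± 234 CPM. The spindle, kinetochore and cohesin list gave 17 of 43 higher (median -0.04), with AURKA at 5232 ± 505 and 5216 ± 491 CPM. Oocyte-secreted factors and zona pellucida genes gave 7 of 12 (median 0.06), and oocyte transcription factors 7 of 15 (median -0.03), with STAT3 at 1680 ± 187 and 1643 ± 200. In the subcortical maternal complex, which the early embryo needs, 6 of 7 were higher (median 0.23), led by OOEP (0.65), and NLRP9 was at 999 ± 119.5 and 895.9 ± 66.1 CPM. None of these lists held a call in limma.

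**Figure D5:**
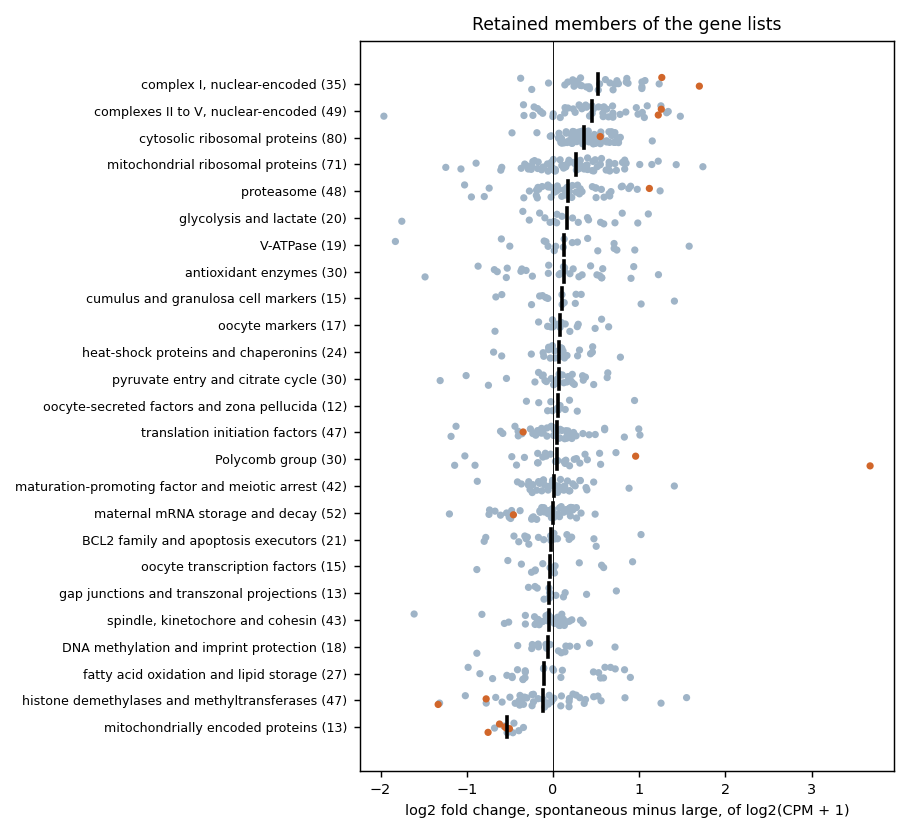
Log2 fold change (spontaneous minus large) of each retained member of the lists with at least 12 retained members, ordered by their median (vertical bars). Orange points passed a nominal p of 0.01 or less. Mitochondrially encoded transcripts lie below 0, nuclear respiratory and cytosolic ribosomal transcripts mostly above 0, and meiotic and maternal lists around 0.

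Energy and stress lists likewise held no call in limma. Glycolysis and lactate genes gave 14 of 20 higher in spontaneous pools (median 0.17), with LDHA at 456 ± 189 and 440.5 ± 90.2 CPM. Pyruvate entry and the citrate cycle gave 19 of 30 (median 0.06), with CS at 1153 ± 159 and 1257 ± 194. Fatty acid oxidation and lipid storage gave 12 of 27 (median -0.11), with ACSL3 at 273.5 ± 18.5 and 275 ± 42.6. The V-ATPase gave 13 of 19 (median 0.13), with ATP6V0C at 316 ± 59.4 and 340 ± 43.4. Heat-shock proteins and chaperonins gave 15 of 24 (median 0.07), with HSP90B1 at 2023 ± 207 and 2053 ± 177. The BCL2 family and apoptosis executors gave 9 of 21 (median -0.03), with APAF1 at 529.8 ± 97.6 and 537 ± 99.8. Gap junction and transzonal projection genes gave 5 of 13 (median -0.04), with EZR at 934 ± 83.6 and 910 ± 113. PRDX2, the antioxidant enzyme of highest CPM, was at 256 ± 60.2 and 352 ± 106 CPM. Oocyte markers gave 11 of 17 (median 0.08).

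Markers of other cells that could adhere to an oocyte were measured in the same pools. Cumulus and granulosa markers (15 retained of 24, FOXL2 without a read) summed to 879 to 4449 CPM in large and 1148 to 3471 in spontaneous pools, and the highest sum was that of large replicate 6. VCAN, the cumulus matrix proteoglycan, was at 1344 ± 1136 and 1164 ± 815 CPM. White blood cell markers (6 retained of 19, with CORO1A, ITGAM and TYROBP without a read and CD3D, CD14 and PTPRC under 1 CPM) summed to 213.5 to 334 CPM in large pools and to 241, 362, 703 and 943 in spontaneous pools. The higher sums lay mainly in SRGN, a proteoglycan of secretory granules that many cells make, at 107 ± 43.1 and 341 ± 315 CPM (log2 fold change 1.10). Theca markers (5 of 11) summed to 24.2 to 113 and 15.95 to 179 CPM, endothelial markers (5 of 10, PECAM1 without a read) to 197 to 248 and 176 to 279, and red blood cell markers (1 of 4, HBB without a read) to 4.82 to 54.0 and 4.93 to 51.7. COL1A1, FLT1 and EPB42, the highest of these lists, were at 22.6 ± 15.5, 80.0 ± 21.0 and 24.9 ± 16.8 CPM in large pools and 24.1 ± 30.3, 106 ± 21.5 and 22.3 ± 20.4 in spontaneous pools. None of these markers passed the nominal threshold in limma. The part of these cells in the results was not tested.

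The called transcripts were set beside the cumulus cells (CC) of the same classifications, in a table scaled separately. Of the 40 higher in spontaneous oocytes 33 were retained in CC, and 25 of these were higher in spontaneous CC (6 large and 5 spontaneous pools). Of the 55 higher in large oocytes 44 were retained, and 18 of these were higher in large CC. Over all 9712 retained CC transcripts 6368 were higher in spontaneous CC (median 0.11), so most transcripts leaned that way. None of the 77 reached a nominal p of 0.01 in CC, where 1.66% of all transcripts did. The mitochondrially encoded transcripts were lower in spontaneous CC as well, 13 of 13 with a median of -0.24, and each of their CC p-values was above 0.1. Cytosolic ribosomal proteins, by contrast, gave 36 of 80 higher in spontaneous CC with a median of -0.01. The difference between oocytes and CC was not tested.

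Oocyte pools of small induced follicles (at most 11.7 mm, second GnRH injection, n = 6) were not part of the test and are given beside it. For the 40 transcripts higher in spontaneous pools the mean of the small pools lay between the other two classifications in 29, below both in 11 and above both in 0. For the 55 higher in large pools it lay between in 44, above both in 9 and below both in 2. Transcripts chosen for a difference between large and spontaneous pools leave most room between them, so these counts are a description. On the log2 scale the mean of the small pools was nearer to that of large than of spontaneous pools in 35 of the 40 and in 40 of the 55. Summed mitochondrially encoded transcripts were at a median of 17460 CPM in small pools, 12820 in large and 10110 in spontaneous pools, and 1 small pool was at 50000. COX1 was highest in small replicate 3 (8040 CPM), which had the fewest reads on genes of the oocyte pools (7664375). This pool is part of the small means above, which were not recomputed without it. The median of TRIR in small pools was 2.78 CPM, that of EDF1 35.9 and that of NDUFA13 20.3, that of UBE3C 26.0 and that of ADNP2 34.8.

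Groups that did not overlap were found for 38 of the 95 called transcripts. Over all 10076, every spontaneous pool was above every large pool in 42 (0.417%), and every large pool above every spontaneous pool in 50 (0.496%). The called transcripts include 14 of the first kind and 24 of the second.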

How the data were processed

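The authors extracted RNA from pools of oocytes, amplified it to cDNA, sequenced single-end reads, mapped them with Hisat2 to UMD3.1, a bovine genome build, and ran featureCounts on the Ensembl annotation. The deposited unit is CPM, which the authors computed from counts per gene. Values were whole multiples of 1 read for 100% of the transcripts of every pool (tolerance 0.01), so reads were recovered for the count-based alternatives, and 0 columns were unmatched. Amplification without molecular identifiers and single reads on gene families can change single values, and neither strand nor transcript length was used here. Of the retained transcripts 558 had no symbol. Log2(CPM + 1) was compared with limma 3.58.1 (R 4.3.3, empirical Bayes with a trend, no covariates), with Benjamini-Hochberg adjusted p beside a nominal threshold of 0.01, which the study applied to edgeR and DESeq2. Single transcripts also had an exact permutation test of mean CPM over all 210 assignments, two-sided. edgeR 4.0.16 and DESeq2 1.42.0 were alternatives. The labels do not name the cows behind a pool, so p-values measure the spread between these pools. All pools of a classification differed beyond sampling noise (chi-square per degree of freedom at least 60.9). The fit was tested on simulated data. The pools, gene lists and tests were chosen with earlier results of these data known. The text names the 15 transcripts of smallest p in each direction, every called list member, the member of highest CPM of each list, 5 respiratory transcripts the study singled out, and cell markers. Others are said to be chosen after their values were seen.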

Additional observations from a re-analysis of the deposited data

Results flagged for a closer look

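Single pools lay far from the others of their classification in several named transcripts, by a test of the gap between the extreme pool and its neighbour that flags about 1 in 20 groups by chance. Of 184 groups checked, 17 were picked out. Large replicate 6 was the extreme pool for CBX6 (29.6 CPM), TNC (24.2), SETD2 (102), ND1 (4460), ND4 (2920) and COX3 (5200), and for the summed mitochondrially encoded transcripts (26800 CPM). Large replicate 1 was high for ALKBH7 (8.32 CPM). Large replicate 3 was high for CCDC51 (3.26 CPM), low for EEF1B (7.54 CPM), a translation elongation factor called higher in spontaneous pools and named for this gap, and low for summed cytosolic ribosomal proteins (7280 CPM). Spontaneous replicate 1 was high for BTG4 (4890 CPM) and spontaneous replicate 2 for TNC (90.5 CPM) and ZNF391 (5.94 CPM), and low for PSMA7 (256 CPM). Spontaneous replicate 3 was high for summed mitochondrial ribosomal proteins (4200 CPM), and spontaneous replicate 4 was low for UBE3C (11.7 CPM).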

How the results depend on the processing

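The number past the nominal threshold was 95 (40 higher in spontaneous, 55 higher in large). With edgeR's likelihood ratio test it was 146 (72 and 74), with DESeq2 181 (79 and 102), and with both together 128 (61 and 67). With no filter it was 137 (70 and 67), with depth as a covariate 133 (77 and 56), and with limma-voom 77 (43 and 34). Leaving out each pool gave 75 to 145 in all, 26 to 90 higher in spontaneous, 38 to 62 higher in large and 0 to 1 with adjusted p under 0.05. The lowest total was without spontaneous replicate 3 and the highest without spontaneous replicate 2. The single adjusted p under 0.05 was CBX6 without large replicate 6, the large pool in which it was high. CBX6 would not have been retained without the spontaneous pools and did not pass in edgeR or DESeq2. Its adjusted p in such a fit is therefore no added support. Leaving out both pools that stood apart, chosen after seeing the data, gave 80 (26 and 54) and 1 adjusted p under 0.05, again CBX6. In DESeq2 1 transcript had an adjusted p under 0.05, KDM8, which had no read in any spontaneous pool and a median of 0.0462 CPM in large pools (highest 24.8, exact permutation p = 0.3). The cause of these changes was not tested. With the replicate number as a block 28 were higher in large pools and 39 in spontaneous pools, but the numbers do not pair the pools (correlation of same-numbered deviations -0.073 to 0.0255). Of 51 named transcripts past the threshold, 19 were retained and passed with any pool left out, and 22 of the 49 still retained passed without both pools that stood apart. Median differences kept their sign under the 22 alternatives in which they were computed (21 for mitochondrially encoded transcripts), which did not include edgeR or DESeq2, for mitochondrially encoded (-0.69 to -0.30), nuclear oxidative phosphorylation (0.27 to 0.60), cytosolic ribosomal (0.18 to 0.52) and mitochondrial ribosomal transcripts (0.04 to 0.34). No named difference changed sign under any alternative run. Spontaneous pools were mostly deeper than large pools. Depth limited transcripts near 3 reads.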
